A study of Homo sapiens with 10 samples.

Results

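Tetraspanins are small membrane proteins that cross the membrane several times and gather integrins, proteases and immune receptors into microdomains. In blood cells they take part in adhesion, motility, antigen receptor signalling and the making of exosomes, and some of them, such as CD37 and CD53, are largely confined to leukocytes. The 10 genes described here, CD9, CD82, CD63, CD81, CD37, CD53, CD151, TSPAN2, TSPAN32 and TSPAN33, were picked by symbol out of 17687 measured genes, and all 10 were on the array, with 1 probe set each. CD9 and CD82 were picked because their values were higher with OR21, so the OR21 differences of the 10 genes are descriptions and carry no p-value. The other 23 tetraspanins of the family were measured too and serve as comparison.

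The data were 10 oligonucleotide arrays of established human myeloid cell lines, 1 array per condition. HL60, an acute myeloid leukaemia line, and K562, a chronic myeloid leukaemia line, had a control array and an array after OR21 at 500 nM. MDSL and SKM1, labelled as myelodysplastic syndrome lines, had a control array and an array after OR21 at 100 nM. The time given for all 10 arrays was 96 hours. OR21, also named OR-2100, is described by the series as a hypomethylating agent. The remaining 2 arrays came from HL60 derivatives labelled AZA resistant and OR21 resistant, which were untreated; the labels do not say how they were selected or whether they are clones. MDSL cells were grown with interleukin-3 and 2-mercaptoethanol and HL60 in another medium than MDSL and SKM1, so the levels of untreated lines also differ by culture. Lineage markers differed by line: MPO, myeloperoxidase, stood at 17.01 log2 in control HL60 and 17.08 in control SKM1 but at 8.62 in control MDSL, where the platelet integrin ITGA2B stood at 13.62, and the globin gene HBA1 stood at 15.72 in control K562.

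The median gene had a level of 6.63 to 7.05 log2, depending on the array. The treated HL60 array stood out: there, the 4 hybridisation spikes, control RNAs that every array receives, averaged 11.71 log2, while the other 9 arrays gave 10.85 to 11.10. Another set of control RNAs, the poly-A spikes, was also high on that array, at 8.06 log2 against 6.86 to 7.51. Scaling to the spikes below means the hybridisation spikes. Every HL60 value with OR21 below rests on that array, and the means of the members that differed most are also given without HL60. All levels are log2 intensities, and each is compared only with the same gene on other arrays, because probe sets differ in brightness. Background is the median of an array's background probes, which was 4.98 log2 for untreated MDSL and 5.41 to 5.43 for the rest. CD9 was the member that reached it, on 2 arrays. A difference of 1 log2 is 2-fold. With 1 array per condition, single-line differences and those of the derivatives have no replicate check. The 4 lines are the only replicates of the OR21 response, with line, disease, dose and array noise mixed in their spread. In such bulk RNA, more cells of a type and more RNA per cell cannot be told apart.

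CD9, which organises integrins and acts in motility and membrane fusion, had the widest span of the 10 genes. In control cells it stood at 13.50 log2 in SKM1, 8.65 in K562, 5.38 in HL60 and 4.00 in MDSL, the last 2 at or under background. With OR21 it stood at 14.05 log2 in SKM1, 13.91 in HL60, 10.92 in K562 and 6.89 in MDSL. The untreated derivatives had 11.51 log2 (AZA resistant) and 11.54 (OR21 resistant). CD9 was thus near background in parental HL60, and on the 3 other HL60 arrays it was above its level in control K562. The OR21 difference was at least 8.49 log2, or 360-fold, in HL60 and at least 1.92 log2, or 3.77-fold, in MDSL, both counted from background on the deposited scale. Scaled to the spikes, the HL60 value, with its control as measured, was 7.76 log2. The difference was 2.27 log2 in K562 and 0.55 in SKM1, the line with the highest control level. Over the 4 lines CD9 differed by 3.56 ± 3.45 log2 (SD, n = 4 lines) with the controls as measured, and by 3.31 ± 3.54 with levels under background set to background. Without HL60 these means were 1.90 ± 1.21 and 1.58 ± 0.91.

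CD82, known as a suppressor of metastasis, was the only member at least 2-fold higher in 4 of 4 lines, which held for 0.424% of all genes. CD82 was picked for being higher with OR21, so nothing is read from that share. Control MDSL had 13.12 log2, control HL60 9.48, control SKM1 9.15 and control K562 6.66. With OR21, MDSL had 14.35 log2, SKM1 12.63, HL60 11.49 and K562 8.56. The order of MDSL as highest and K562 as lowest was the same with and without OR21, while SKM1 passed HL60. The difference was 3.48 log2 in SKM1, 2.01 in HL60, 1.90 in K562 and 1.23 in MDSL, with a mean of 2.15 ± 0.95 (SD, n = 4 lines) and of 2.20 ± 1.15 without HL60. Scaled to the spikes, HL60 was at 1.24. In the untreated derivatives CD82 was at 8.85 log2 (AZA resistant) and 9.11 (OR21 resistant), differences of -0.63 and -0.37 from parental HL60. Thus CD9 was high in both derivatives and in treated HL60, whereas CD82 was above its parental control level only in the treated array among the 3.

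The bases before the start of these genes are shown because the agent's class acts on methylated CG pairs; methylation was not measured here. RefSeq windows on GRCh38.p14 were found for 6 of the 10 genes, as the 250 bases before each listed start. Where a gene had several starts, the window with the most GGGCGG matches, searched on both strands, is printed. CG pairs are in capitals, 5′ to 3′ on the gene's strand. The letters are those of CD9 at chr12:6200150-6200399 (plus strand), CD82 at chr11:44565413-44565662 (plus strand) and CD53, a leukocyte tetraspanin given for contrast, at chr1:110872898-110873147 (plus strand).
CD9: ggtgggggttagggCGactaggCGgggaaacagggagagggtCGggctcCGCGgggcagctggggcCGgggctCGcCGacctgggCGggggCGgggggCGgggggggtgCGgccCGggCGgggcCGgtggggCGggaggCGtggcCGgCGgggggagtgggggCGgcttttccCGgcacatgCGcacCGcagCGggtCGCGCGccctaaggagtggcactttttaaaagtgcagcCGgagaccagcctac
CD82: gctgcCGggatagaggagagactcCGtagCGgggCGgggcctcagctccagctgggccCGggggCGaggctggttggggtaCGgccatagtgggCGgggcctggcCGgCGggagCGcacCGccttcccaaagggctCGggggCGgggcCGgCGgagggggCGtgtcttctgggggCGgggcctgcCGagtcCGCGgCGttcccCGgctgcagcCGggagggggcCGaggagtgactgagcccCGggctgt
CD53: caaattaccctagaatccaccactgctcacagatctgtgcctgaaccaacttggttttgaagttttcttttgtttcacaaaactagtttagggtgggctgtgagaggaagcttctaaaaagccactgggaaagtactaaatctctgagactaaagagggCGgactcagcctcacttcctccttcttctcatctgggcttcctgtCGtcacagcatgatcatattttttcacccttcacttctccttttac
The CD9 window held 28 CG pairs, and 15.9% of the 35116 windows in the table held at least as many. The CD82 window held 26, reached by 19.6% of windows, and the CD53 window held 2, reached by 85.3%. GGGCGG occurred 6 times in the CD9 window, 4 times in that of CD82 and 1 time in that of CD53. Of all windows, 42.6% held it at least 1 time. The CD9 and CD53 windows were picked for these matches, so nothing is read from their counts beside that share. The other CD9 windows held 0, 3 and 0 matches, and the other CD53 window 0. Of the other members with windows, TSPAN2 had 30 CG pairs, TSPAN33 had 12 and CD63 had 4 to 30 over its 8 windows. CD53 had 2 and 3 in its 2 windows. Whether CG counts go with the OR21 differences was not tested. The other 3 CD9 windows held 10, 29 and 1 CG pairs, and the array does not tell which start was used.

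**Figure D1:**
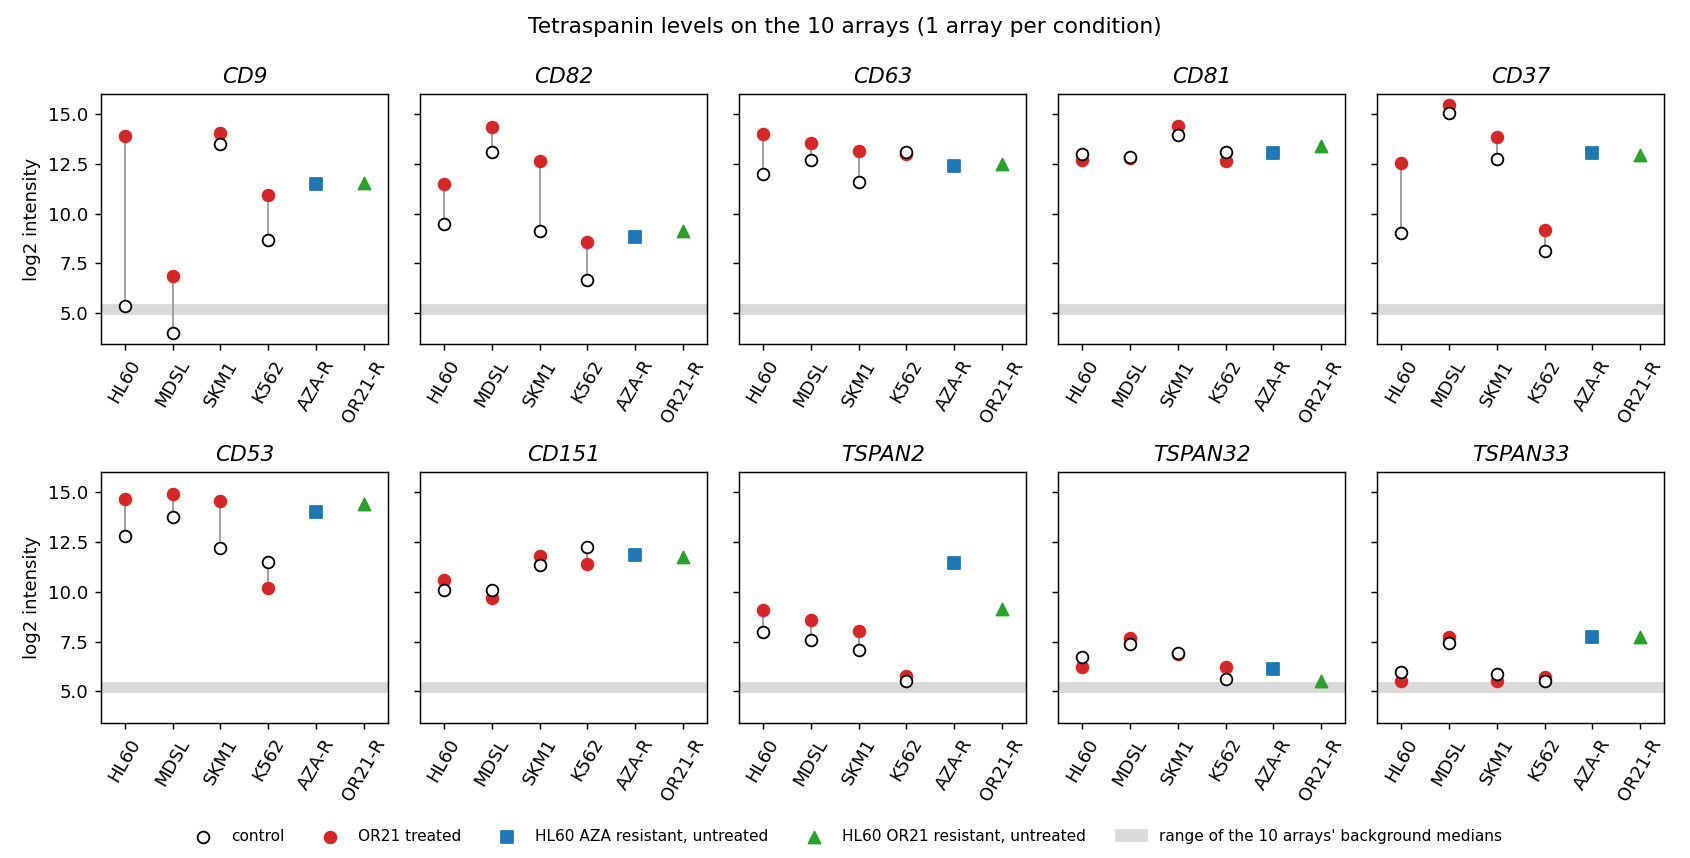
Log2 intensity of each of the 10 tetraspanins on the 10 arrays, 1 point per array: open circles are controls, red circles OR21-treated cells of the same line, the blue square and green triangle the untreated HL60 derivatives, and the grey band the range of the arrays' background medians. CD9 goes from 5.38 in control HL60 to 13.91 with OR21 and stays above 11 in both derivatives, whereas CD82 is higher with OR21 in every line and lies at 8.85 and 9.11 in the derivatives.

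CD37 and CD53 are tetraspanins of leukocytes; CD37 is best known from mature B cells and CD53 from most white cells. CD37 had a control level of 15.06 log2 for MDSL, 12.74 for SKM1, 9.02 for HL60 and 8.10 for K562, and with OR21 15.46, 13.83, 12.53 and 9.19 in the same order of lines. The treated level was the higher one in all 4 lines, and the order of the lines did not change. The differences were 3.51 log2 in HL60, 1.09 in SKM1, 1.08 in K562 and 0.40 in MDSL, a mean of 1.52 ± 1.37 (SD, n = 4 lines) and of 0.86 ± 0.40 without HL60. Centring each array on its median took SKM1 and K562 to 0.94, under 2-fold, and scaling to the spikes took HL60 to 2.75. In the derivatives CD37 stood at 13.02 log2 (AZA resistant) and 12.92 (OR21 resistant), which is 4.00 and 3.90 above parental HL60, or 16.0-fold and 14.9-fold. On the deposited scale, these untreated arrays were 0.49 and 0.39 log2 above the array of OR21-treated HL60.

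CD53 had a control level of 13.76 log2 for MDSL, 12.82 for HL60, 12.20 for SKM1 and 11.51 for K562, and with OR21 at 14.93, 14.65, 14.56 and 10.21. K562 was the lowest line in both conditions, and the gap between it and the other lines was wider on the treated arrays. The difference was 2.36 log2 in SKM1, 1.83 in HL60 and 1.18 in MDSL, against -1.30 in K562. The mean was 1.02 ± 1.61 (SD, n = 4 lines), 0.57 without SKM1 and 1.79 without K562. Scaled to the spikes, HL60 was at 1.06. On the scale of the deposited values, this was the only 2-fold lower value among the members in the 4 lines; of all genes, 3.86% were 2-fold lower in K562, 11.1% in HL60, 4.88% in MDSL and 4.47% in SKM1. In 3 or more lines, CD9, CD82, CD37 and CD53 were at least 2-fold higher, as were 2.45% of all genes. The members were chosen with this contrast, so nothing is read from that share. The derivatives had 13.99 and 14.41 log2, 1.17 (AZA resistant) and 1.59 (OR21 resistant) above parental HL60. Of the 4 measured B lymphocyte markers, none differed 2-fold with OR21 in any line or between either derivative and parental HL60. MS4A1 was at or under background on all 10 arrays, and the highest control level was that of CD79A in MDSL, at 11.49 log2.

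CD63, a protein of late endosomes, lysosomes and exosomes, stood in control cells at 13.11 log2 in K562, 12.69 in MDSL, 11.99 in HL60 and 11.58 in SKM1, and with OR21 at 12.99, 13.53, 13.99 and 13.14. K562 had the highest control level and the lowest treated level, since the other lines passed it. The difference was 2.00 log2 in HL60, 1.56 in SKM1, 0.84 in MDSL and -0.12 in K562, a mean of 1.07 ± 0.93 (SD, n = 4 lines). In the derivatives CD63 was 0.39 and 0.49 log2 above parental HL60, and 1.61 and 1.51 below treated HL60 on the deposited scale. Like CD82, CD63 in HL60 was at 1.24 log2 when scaled to the spikes. Both genes were thus more than 2-fold higher in treated HL60 and less than 2-fold from parental HL60 in both derivatives.

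Genes of late endosomes and exosomes gave a separate view of the compartment of CD63. Of 17 measured, none passed limma's test over the 4 lines in either direction. On average 15 were higher, as were 8414 of all 17687 genes. The list median was 0.31 log2 against -0.02 over all genes. SDCBP, which encodes syntenin, an adaptor of exosome formation, differed by 1.06 ± 0.74 log2 (SD, n = 4 lines, limma adjusted p = 0.155), and RAB27B, a GTPase of vesicle secretion, by 1.67 ± 1.85 (limma adjusted p = 0.237). The RAB27B difference was 3.28 log2 in MDSL and 3.25 in SKM1, against -0.18 in HL60 and 0.34 in K562. Its control and treated levels in HL60 and its control level in K562 were under background. FLOT1, a lipid raft protein, differed by 1.06 ± 1.21 (limma adjusted p = 0.261) and stood 2.37 and 2.57 log2 above parental HL60 in the AZA and OR21 resistant derivatives. Among genes that reached the median of an array, the lowest means were those of VPS4A at -0.12, LAMP1 at -0.08 and HGS at 0.06. The lysosomal membrane protein gene LAMP1 went from 0.75 in HL60 to -1.02 in K562.

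TSPAN2, best known from myelinating cells of the brain, had a control level of 7.97 log2 for HL60, 7.59 for MDSL, 7.06 for SKM1 and 5.54 for K562. With OR21 it stood at 9.08, 8.61, 8.03 and 5.80, the same order of lines. HL60, MDSL and SKM1 differed by 1.12, 1.02 and 0.98 log2, and K562, where both levels were near background, by 0.27. The HL60 value was 0.36 when arrays were scaled to their hybridisation spikes and 0.95 when centred on their medians, which put MDSL at 0.97. TSPAN2 was the one member on which the 2 derivatives were at least 2-fold apart: it stood at 11.43 log2 in AZA resistant HL60 and at 9.14 in OR21 resistant HL60, a difference of -2.29. Over all genes, 0.888% were at least 2-fold lower in the OR21 resistant derivative than in the other, and 0.678% were higher. The other 9 members lay between -0.62 and 0.42 log2 between the derivatives.

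CD151, which binds laminin-binding integrins, and TSPAN33, one of the tetraspanins that carry the protease ADAM10 to the cell surface, were at least 2-fold higher in the derivatives and under 2-fold in every treated line on the deposited scale. CD151 stood at 11.83 log2 (AZA resistant) and 11.74 (OR21 resistant) against 10.09 in control HL60 and 10.61 in treated HL60. In the other lines it went from 12.25 to 11.38 in K562, from 11.33 to 11.79 in SKM1 and from 10.08 to 9.70 in MDSL. The derivatives exceeded both parental HL60 arrays, by 1.73 and 1.65 log2 over the control and by 1.21 and 1.13 over the treated array. TSPAN33 stood at 7.75 and 7.73 log2 in the derivatives against 5.99 in control and 5.55 in treated HL60. Its control and treated levels were 7.43 and 7.74 log2 for MDSL, 5.90 and 5.53 for SKM1 and 5.55 and 5.71 for K562. TSPAN33 on both derivative arrays was thus near its MDSL level, and 1.76 and 1.74 log2 above parental HL60. Its level lay above 78.8% of the negative control probe sets in control HL60 and 70.1% in treated HL60. These differences are therefore counted from levels close to background.

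CD81, a widely expressed tetraspanin found in exosomes, and TSPAN32, a tetraspanin of blood cells, had differences under 2-fold in all 4 treated lines on the deposited scale. CD81 stood between 12.62 log2 in treated K562 and 14.42 in treated SKM1 over the 10 arrays, and its OR21 differences ran from -0.49 in K562 to 0.45 in SKM1. The derivatives were 0.06 and 0.42 log2 from parental HL60, the first of which was -0.11 with centred arrays. TSPAN32 stood between 5.53 log2 in OR21 resistant HL60 and 7.68 in treated MDSL, with OR21 differences from -0.51 in HL60 to 0.59 in K562. It was 1.22 log2 lower in OR21 resistant than in parental HL60, against 0.60 lower in AZA resistant HL60. On the OR21 resistant array its level lay above 71.9% of the 612 negative control probe sets, so this difference is close to background.

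**Figure D2:**
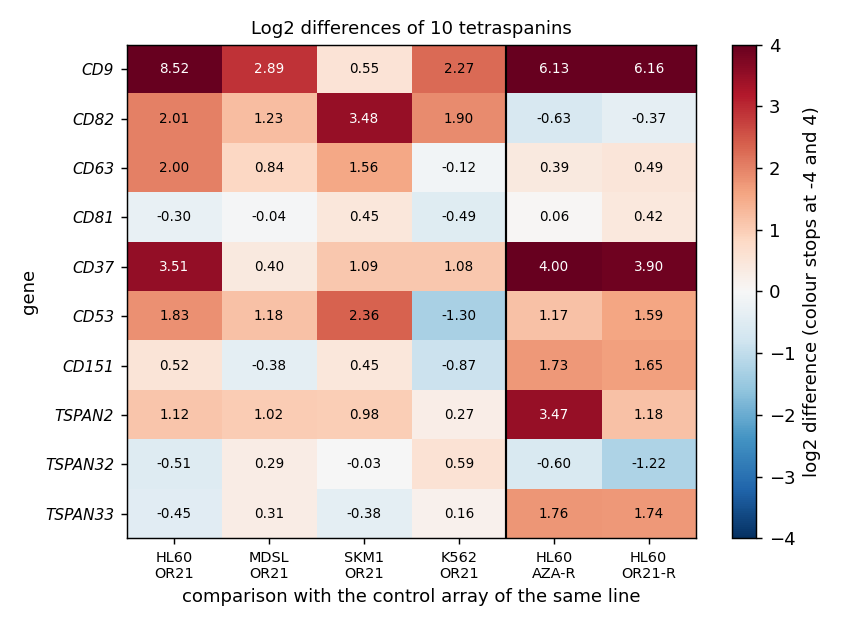
Log2 differences of the 10 tetraspanins from the control array of the same line, with OR21 in 4 lines (left of the black line) and in the 2 untreated HL60 derivatives (right), red for higher and blue for lower. CD82 is red in the 4 OR21 columns and pale blue in the derivatives, whereas CD151 and TSPAN33 reach 1.65 to 1.76 in the derivatives and no more than 0.52 with OR21.

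Counted over the 10 genes, OR21-treated HL60 had 6 at least 2-fold higher (10.2% of all genes), MDSL 4 (6.62%), SKM1 4 (7.10%) and K562 3 (5.05%). The members were chosen with this contrast, so nothing is read from these counts. Their median difference was 1.47 log2 for HL60, 0.62 for MDSL, 0.77 for SKM1 and 0.21 for K562, against -0.05 to 0.00 over all genes. By line, CD9, CD82, CD63, CD37, CD53 and TSPAN2 were past 2-fold in HL60, CD9, CD82, CD53 and TSPAN2 in MDSL, CD82, CD63, CD37 and CD53 in SKM1, and CD9, CD82 and CD37 in K562. CD81, CD151, TSPAN32 and TSPAN33 stayed under 2-fold in all 4 lines. Scaled to the spikes, CD81, TSPAN32 and TSPAN33 were past 2-fold lower in HL60, at -1.06, -1.27 and -1.21 log2, and CD151 turned to -0.24; centring on medians put CD151 in K562 at -1.01.

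In the derivatives 6 of 10 members were at least 2-fold higher than in parental HL60, CD9, CD37, CD53, CD151, TSPAN2 and TSPAN33, and these were the same 6 genes in both. Over all genes 7.04% were that much higher in AZA resistant and 7.69% in OR21 resistant HL60, and 5.82% in both. TSPAN32 in OR21 resistant HL60 was the 1 member at least 2-fold lower, where 4.27% of all genes were (5.11% in AZA resistant HL60). The members' median was 1.45 and 1.38 log2, against -0.02 and -0.07 over all genes. CD9, CD37, CD53 and TSPAN2 were at least 2-fold higher in treated HL60 and in both derivatives, which held for 2.57% of all genes. The members were chosen with earlier results of these data known, so nothing is read from these counts and medians either. The comparisons of treated HL60 and of both derivatives with parental HL60 share the control array. Set directly against treated HL60, which does not use that array, the derivatives were at least 2-fold lower for CD9 (-2.40 and -2.36 log2), CD82 (-2.64 and -2.37) and CD63 (-1.61 and -1.51). Both were at least 2-fold higher for CD151 and TSPAN33, and AZA resistant HL60 also for TSPAN2, by 2.35. All genes had 9.46% lower and 10.6% higher in AZA resistant than in treated HL60, and 9.56% and 12.1% in OR21 resistant HL60. These direct differences are on the deposited scale and use the treated HL60 array with its high spikes. Scaled to the spikes, CD63 stood 1.24 log2 above control in treated HL60 and 0.36 and 0.44 above it in the derivatives, gaps under 2-fold. By the same scaling CD37 stood at 2.75 against 3.97 and 3.85, and CD81 at -1.06 against 0.03 and 0.38, gaps past 2-fold.

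**Figure D3:**
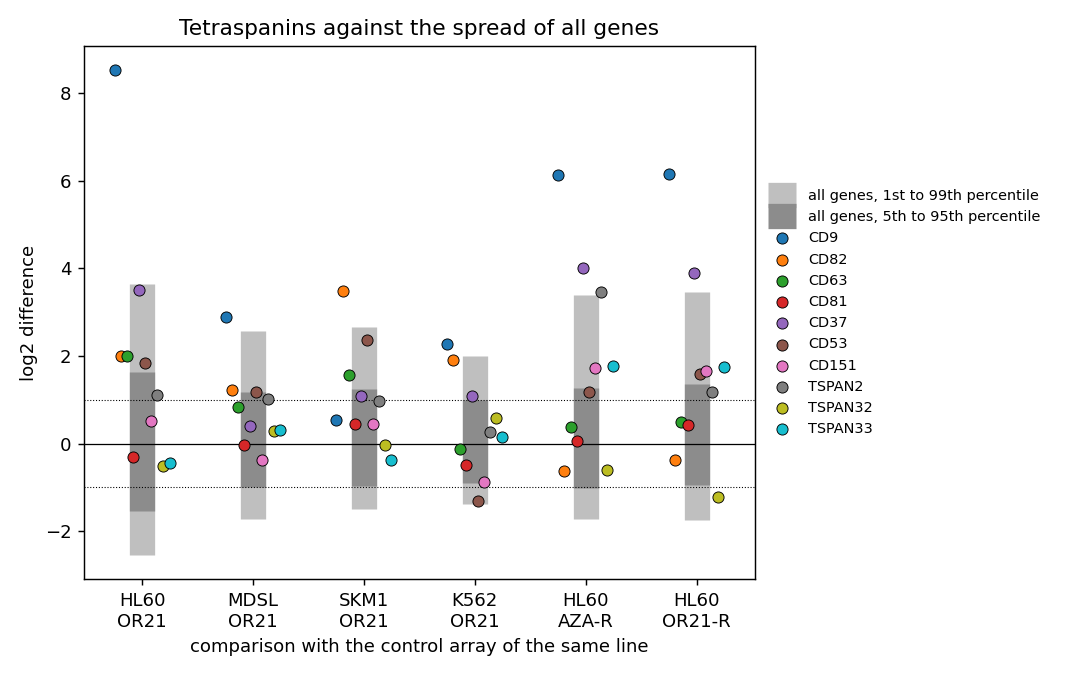
Log2 differences of the 10 tetraspanins (coloured points) in each comparison with the control array of the same line, over grey bars for the 1st to 99th and 5th to 95th percentiles of all 17687 genes; dotted lines mark 2-fold. CD9 lies above the 99th percentile of all genes in HL60, K562 and both derivatives, and CD37 lies above it in the derivatives. CD82 also lies above it in SKM1 (3.48 against 2.66), and TSPAN2 in AZA resistant HL60 (3.47 against 3.40). The CD9 point of MDSL has no rank, because its control was under background and the bound of 1.92 lies below that percentile, 2.57. CD9 and CD82 were picked for being higher with OR21, and the members with earlier results known, so nothing is read from these ranks.

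Markers of blood cell lineages differed in the same comparisons. In treated HL60, 5 of 10 measured granulocyte and monocyte markers were at least 2-fold higher, S100A8, S100A9, CD14, CSF1R and ITGAM, and 4 were lower, MPO, PRTN3, AZU1 and CTSG. The median difference of the 10 markers was 1.83 log2 for HL60, 0.56 for MDSL, -0.06 for SKM1 and 0.16 for K562. MDSL had 4 higher and 0 lower at 2-fold, SKM1 3 and 2, K562 0 and 0, AZA resistant HL60 4 and 2, and OR21 resistant HL60 6 and 2. In K562, 4 of the 10 were at or under background on the control array and 5 on the treated one. Of 8 T and NK cell markers, 6 were at least 2-fold higher in treated HL60 as measured, and 3 with levels under background set to background. Of 7 erythroid markers, 6 were at least 2-fold higher in treated MDSL (5 from background) and 4 in treated K562. Of 7 megakaryocyte and platelet markers, 5 were at least 2-fold higher in treated MDSL. Of 10 genes listed as epithelial and stromal markers, 4 were in treated HL60, namely CDH1, KRT8, KRT18 and PECAM1. PECAM1 already stood at 10.24 log2 in control HL60 and at 10.97 in control MDSL. Over all genes the share at least 2-fold higher was 10.2% for HL60, 6.62% for MDSL, 7.10% for SKM1 and 5.05% for K562. The share that much lower was 11.1%, 4.88%, 4.47% and 3.86% in the same order. For AZA resistant HL60 it was 7.04% higher and 5.11% lower, and for OR21 resistant HL60 7.69% and 4.27%. The part of these markers in the tetraspanin values was not tested.

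Of the other 23 tetraspanins, none passed limma's test over the 4 lines in either direction, where 0.0396% of all genes were called higher and 0% lower (7 and 0 genes; 3372 genes had an unadjusted p under 0.05). TSPAN15, like TSPAN33 a partner of ADAM10, had the largest mean among those that reached the median of an array, 1.82 ± 1.10 log2 (SD, n = 4 lines, limma adjusted p = 0.124). Its control and treated levels were 4.18 and 7.55 log2 for HL60, 3.89 and 5.16 for MDSL, 7.37 and 9.19 for SKM1, and 3.89 and 4.73 for K562. The treated level was higher in 4 of 4 lines as measured, but 3 controls and the treated MDSL and K562 arrays were at or under background. Counted from background the mean was 1.09 ± 1.04, with 2.13 in HL60 and 1.82 in SKM1. That mean includes 0.44 for MDSL, which is only the gap between the background medians of its control and treated arrays. TSPAN13 differed by 0.91 ± 0.42 (limma adjusted p = 0.127) and TSPAN18, the neighbour of CD82 on chromosome 11, by 0.59 ± 0.26 (limma adjusted p = 0.177), both higher in 4 of 4 lines. By the same limit, the lowest means were TSPAN3 at -0.23, TSPAN4 at -0.14 and TSPAN5 at -0.01. The median of the 23 genes was 0.19 log2, against -0.02 over all genes.

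In the derivatives, 8 of the other 23 were at least 2-fold higher in AZA resistant HL60 (7.04% of all genes) and 5 in OR21 resistant HL60 (7.69%). With levels under background set to background, these were 6 (5.77% of all genes) and 4 (6.48%). The largest was TSPAN6, at 7.86 and 8.62 log2 in the derivatives against 4.42 in control and 4.39 in treated HL60. These parental levels were under background. TSPAN6 therefore belongs with CD151 and TSPAN33 in being high on the derivative arrays and not on the treated one. TSPAN15, in contrast, stood at 5.44 and 5.61 log2 in the derivatives, under its 7.55 in treated HL60. TSPAN6, named here after its values were seen, lies on chromosome X.

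**Figure D4:**
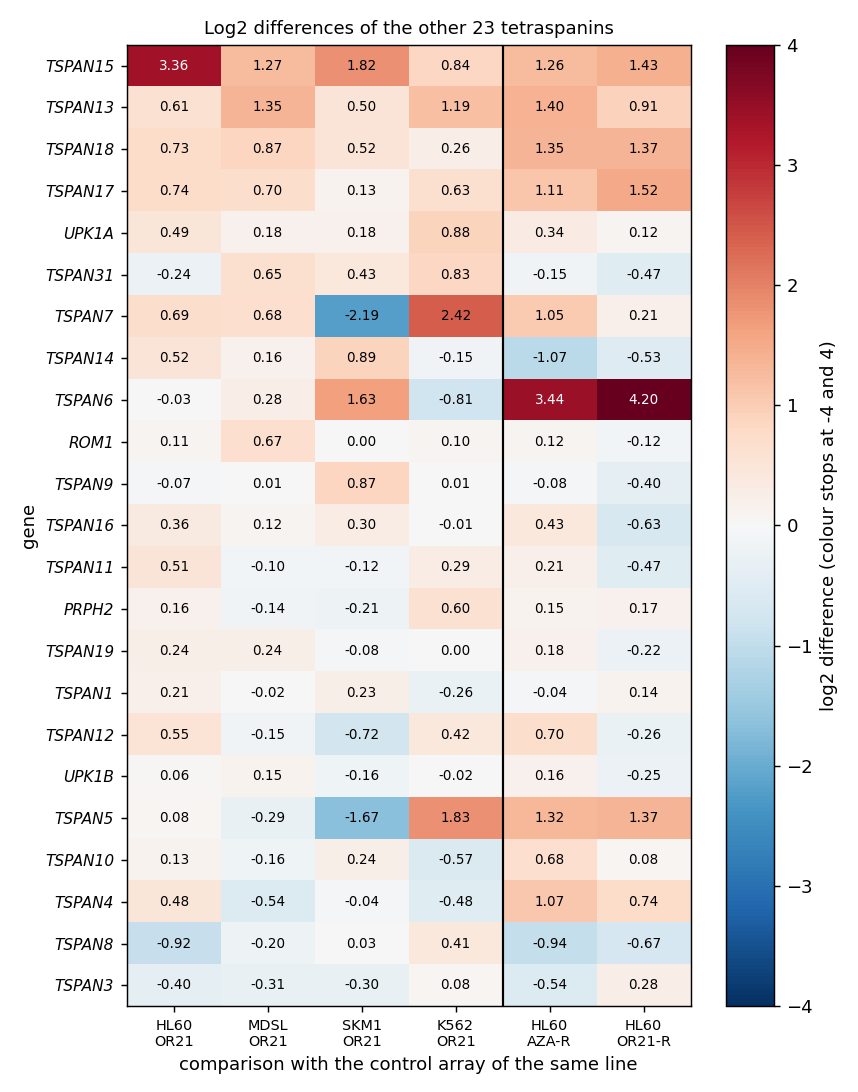
Log2 differences of the other 23 tetraspanins in the same 6 comparisons, ordered by the mean over the 4 lines, red for higher and blue for lower. TSPAN15 is the highest row with OR21, and TSPAN6 has the largest values in the derivatives, 3.44 and 4.20 as measured and at least 2.45 and 3.21 counted from background.

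Some members lie next to another tetraspanin in the RefSeq gene order, and their values were set side by side. CD82 and TSPAN18 are neighbouring protein-coding genes on chromosome 11, and in SKM1 they differed by 3.48 and 0.52 log2 with OR21. In the derivatives CD82 was below parental HL60, whereas TSPAN18 was above it, by 1.35 and 1.37. TSPAN32 and CD81 are also neighbours on chromosome 11, and in OR21 resistant HL60 they stood at -1.22 and 0.42. CD151 and TSPAN4, with 1 protein-coding gene between them, had differences of the same sign in HL60 (0.52 and 0.48), MDSL (-0.38 and -0.54) and K562 (-0.87 and -0.48), and of opposite sign in SKM1 (0.45 and -0.04).

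Integrins, proteases and immunoglobulin-like proteins that tetraspanins bind were measured for 24 of 25 listed genes. None passed limma's test over the 4 lines in either direction. On average 19 were higher, with a median of 0.56 log2. Over all genes, 8414 of 17687 were higher on average, with a median of -0.02. ITGAM, the alpha chain of a myeloid integrin, had the largest mean, 2.73 ± 1.76 log2 (SD, n = 4 lines, limma adjusted p = 0.124), followed by ITGA2B at 1.74 ± 1.56 and the hyaluronan receptor CD44 at 1.44 ± 1.70. ITGA4, the alpha chain of a fibronectin and VCAM receptor that associates with CD81 and CD82, differed by -1.10 ± 1.28 (limma adjusted p = 0.269), ITGA5 by -0.91 ± 0.81 and ITGA6 by -0.20 ± 0.95. ITGB1, the beta chain bound by many tetraspanin complexes, differed by 0.92 ± 0.70 and ADAM10 by 0.54 ± 0.21, both higher in 4 of 4 lines and neither past the test (limma adjusted p = 0.177 and 0.189). In the derivatives, ITGB1 was at -0.07 and 0.22 log2 and ITGA4 at 0.75 and 1.18.

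The OR21 differences of the members were also set against dose. Counted from background, CD9 averaged 5.38 log2 in the 500 nM leukaemia lines and 1.23 in the 100 nM myelodysplastic lines. The same averages were, for CD37, 2.30 and 0.75, and for CD53, 0.26 and 1.77. Dose and disease cannot be told apart, and HL60 and K562 differed widely between themselves. The interaction test of limma called 0% of all genes (0 genes; 968 at an unadjusted p under 0.05), so none of the members was called. DNMT1, the maintenance methyltransferase that agents of this class target, stood at 11.05 log2 in control and 9.98 in treated HL60, and at 11.12 and 11.10 in the derivatives. Its OR21 difference was -1.07 log2 in HL60 and -0.44 in K562, the 500 nM lines, and -1.90 in MDSL and -1.12 in SKM1, the 100 nM lines.

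Among 6801 genes with a range of at least 2 log2, those whose log2 levels over the 10 arrays were most like CD9 were SPARC (Pearson r = 0.96), ERRFI1 (0.95), MERTK (0.90) and CORO1B (0.90). Most like CD82 were DDX17 and SYT11 (0.98 each), HIF1A and YTHDF3 (0.97 each). These are descriptions over 10 arrays of which 4 come from HL60, and the arrays are not independent samples. SPARC, a matrix glycoprotein, stood at 4.19 log2 in control HL60, 10.66 with OR21, and 9.14 and 10.47 in the derivatives, and in SKM1 at 12.50 without and 11.53 with OR21. HIF1A, the oxygen-regulated transcription factor, ranged from 10.07 in control K562 to 12.74 in treated MDSL.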

How the data were processed

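The authors deposited linear intensities per probe set, from 4.25 to 405294; software, background correction and normalization are not given in the sources used here. Array quartiles lay close together, so the values were taken as normalized and converted to log2 without a pseudocount or a filter. Per the labels' protocols, a Direct-zol kit gave the RNA, which was labelled with biotin. A platform annotation gave 1 symbol to 17709 of 24351 rows and several to 0; for 20 genes the probe set with the highest mean was kept, leaving 17687 genes. 6642 rows, controls included, are unnamed here.

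OR21 was tested with limma 3.58.1 in R 4.3.3 (lmFit, eBayes, two-sided, cell line as block, 8 arrays, 3 residual degrees of freedom, Benjamini-Hochberg over all genes, threshold 0.05); the interaction with dose used the same arrays. Each line pairs its own control and treated arrays. The labels do not name separate cultures behind the arrays, so the spread may be partly technical. Setting each level under its array's background median to that median was an alternative chosen after seeing the data. Members and lists were chosen with earlier results of these data known. Other genes named were, per list, the 3 highest and 3 lowest mean differences among genes reaching an array's median, the 4 genes most correlated with CD9 and with CD82, and DNMT1; further names are members of counts or lists singled out after seeing values. Intensities give no read depth: the number of arrays limits precision.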

Additional observations from a re-analysis of the deposited data

Results flagged for a closer look

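TSPAN2 in K562, with an OR21 difference of 0.27 log2, lay far below the other 3 lines, which lay between 0.98 and 1.12. SDCBP, the syntenin gene, in HL60 lay far above the other 3 lines, at 2.17 log2 against 0.61 to 0.78. Chance singles out about 1 in 20 groups in this way. TSPAN5 was higher with OR21 in both 500 nM lines, by 1.83 log2 in K562 but only 0.08 in HL60. It was lower in both 100 nM lines, at -1.67 in SKM1 and -0.29 in MDSL. The mean differences of the 2 pairs of lines were 1.94 log2 apart, mostly through K562 and SKM1. The interaction test of limma did not call TSPAN5 (adjusted p = 0.877).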

How the results depend on the processing

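The count of 7 genes called over 4 lines was 1 with no cell line block (no pairing by line), and ranged from 0 without SKM1 (2181 at an unadjusted p under 0.05) to 5 without MDSL, with 1 without HL60 and 2 without K562; the cause was not tested. It was 7 under quantile normalization, 6 with centred medians and 7 without dim genes; the interaction count was 0 under the scalings, summaries, block and filter it was run with, and the block by line changed no other call. Of 60 member differences under 4 scalings or summaries, 4 changed sign, each 0.52 log2 or less in size, and 0 differences past 2-fold reversed. The 2-fold line was crossed 10 times. Centring took the count of members at least 2-fold higher with OR21 from 6 to 5 in HL60 and from 4 to 3 in MDSL. The count went from 4 to 3 in SKM1 and from 3 to 2 in K562. Scaling to the spikes gave 5 in HL60 and 5 in SKM1. The count in each derivative stayed at 6. Spike scaling moved the median of all genes in HL60 from -0.05 to -0.81, and centring moved it to -0.22. Leaving out 1 line, the mean ranged from 1.90 to 4.56 log2 for CD9 and from 1.71 to 2.46 for CD82. Setting levels under background to background, chosen after seeing the data, left the members' 2-fold counts as they were and took CD9 in MDSL from 2.89 to 1.92. Levels near background limit CD9, TSPAN2, TSPAN32 and TSPAN33.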
